A study of Mus musculus with 6 samples.

Results

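Integrins, laminins and the proteins that link laminin to the rest of the basement membrane were followed in muscle of WT mice and of mice without muscle TFEB (TFEB KO). The genes were taken by name, as those whose symbol is Itga or Itgb followed by a letter or digit, Lama, Lamb or Lamc followed by a digit, or Nid1, Nid2, Hspg2 or Agrn. The rule found 40 of the 12393 genes with a probe set of their own, read by 69 probe sets in all, and 17 of the 40 had more than 1. Each gene was read by its brightest probe set over the 6 arrays. The 4 leukocyte integrins (Itgam, Itgax, Itgal and Itgb2) were kept apart, which left 36 genes. Of these, 4 match the rule by their symbol and are no integrin subunits (Itgb1bp1, Itgb1bp2, Itgb3bp and Itgbl1). Itga1, Itga10, Itga11 and Itgb8 were not analysed here.

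The WT group was 3 wild-type C57BL/6 mice aged 1 month, and the TFEB KO group was 3 mice of the same strain and age lacking Tcfeb (now named Tfeb) in muscle. In the KO mice the floxed gene was removed by Cre under the MLC1f promoter, which is active in muscle fibers, so the other cells of the tissue kept it. The sources used here do not say whether the WT mice carried the floxed allele or Cre, nor which muscle was used. Total RNA of each mouse was hybridised to 1 array, and values are log2 units after RMA, where a difference of 1 is a doubling. RMA gives each probe set a scale of its own, so each gene was compared with itself between groups and not with other genes.

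The basement membrane is a thin sheet of matrix around each muscle fiber, blood vessel and Schwann cell. Laminins, each made of an alpha, a beta and a gamma chain, form its first network, collagen IV forms the other, and nidogens, perlecan (Hspg2) and agrin (Agrn) join these networks to each other and to the cell. Integrins are receptors of an alpha and a beta subunit that anchor the cytoskeleton to this sheet, and in muscle fibers the product of Itga7 with that of Itgb1 is the main laminin-binding integrin, beside dystroglycan. Leukocyte integrins all share Itgb2 and hold white blood cells to vessel walls, other cells and complement fragments.

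TFEB binds CACGTG and the longer palindrome TCACGTGA, so the promoters of these genes were searched for both. RefSeq promoters (GRCm38.p6, 250 bases before to 50 after the start) were found for 26 of the 40 genes, and Itga6 and Itgb4 have no entry in that table. CACGTG occurred in 0 of the 26 genes, and in 8.09% of all 27025 genes with a promoter in the table. TCACGTGA, which contains the shorter motif, occurred in 0 of 26 genes, against 1.12% of all genes. The general E-box CANNTG, which also matches CACGTG and was added after these results were seen, occurred in 21 of 26 genes (80.8%) and in 75% of all genes. Both motifs and the E-box read the same on either strand. The 250 bases before the start are shown for Itgam, the gene with a promoter entry that passed the test, and for Lamb3, Hspg2 and Agrn, whose groups did not overlap, each 5′ to 3′ on the strand of the gene with CANNTG in capitals. Lamb3 and Agrn each have a further promoter in the table.
Itgam, chr7:128062390-128062639, plus strand: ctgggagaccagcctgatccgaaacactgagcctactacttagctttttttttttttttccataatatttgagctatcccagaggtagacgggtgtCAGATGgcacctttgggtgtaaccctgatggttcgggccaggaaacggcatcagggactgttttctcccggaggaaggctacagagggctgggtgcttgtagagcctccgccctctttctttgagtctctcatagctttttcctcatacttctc
Lamb3, chr1:193301744-193301993, plus strand: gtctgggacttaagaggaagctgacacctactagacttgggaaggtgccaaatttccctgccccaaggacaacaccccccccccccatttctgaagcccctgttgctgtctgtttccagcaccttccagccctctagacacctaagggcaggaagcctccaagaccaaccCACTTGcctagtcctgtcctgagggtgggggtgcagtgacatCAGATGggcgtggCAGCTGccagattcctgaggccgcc
Hspg2, chr4:137468553-137468802, plus strand: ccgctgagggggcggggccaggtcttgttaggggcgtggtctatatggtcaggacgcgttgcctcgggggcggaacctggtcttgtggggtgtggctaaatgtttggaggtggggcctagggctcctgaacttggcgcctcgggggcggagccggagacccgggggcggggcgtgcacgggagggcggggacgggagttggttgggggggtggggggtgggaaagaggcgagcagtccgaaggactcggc
Agrn, chr4:156197489-156197738, minus strand: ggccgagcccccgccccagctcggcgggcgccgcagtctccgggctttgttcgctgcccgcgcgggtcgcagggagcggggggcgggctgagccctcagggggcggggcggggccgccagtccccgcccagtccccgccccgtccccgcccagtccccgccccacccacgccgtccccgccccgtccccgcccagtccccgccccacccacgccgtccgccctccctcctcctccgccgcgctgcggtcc
The Itgam stretch held 1 E-box, 154 bases before the start, and the Lamb3 stretch held 3, between 80 and 25 bases before it. The stretches of Hspg2 and Agrn held 0. These letters describe the windows and say nothing of binding.

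The deleted gene followed the labels. Tfeb, read by 1 probe set whose place relative to the deleted part was not determined, stood between 8.55 and 8.96 in WT and between 7.04 and 7.23 in TFEB KO, a log2 fold change of -1.58 (standard error 0.13, limma adjusted p = 0.0079). Correlations between arrays over all probe sets were 0.992 to 0.997 within groups and 0.989 to 0.993 between them. The muscle genes Acta1 and Ckm lay between 14.79 and 14.93 on all arrays, close to the highest value of the table, 14.93. Of all genes, 87 fell (0.702%) and 108 rose (0.871%) at a limma adjusted p under 0.05.

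Among the 36 genes outside the leukocyte integrins, 1 fell in TFEB KO muscle, Itga6, and 0 rose by limma. The share that fell is read against 0.702% of all genes and the share that rose against 0.871%. At an unadjusted p under 0.05, limma gave 7 lower (8.66% of all genes) and 2 higher (8.49%), and the methods' t-test, unadjusted, gave 5 lower (8.37% of all genes) and 1 higher (6.53%). The groups did not overlap for 6 genes that were lower (12.9% of all genes) and for 2 that were higher (10.8%). The median log2 fold change of the 36 was -0.09, that of all genes was -0.01, and the range ran from -0.80 (Itga6) to 0.49 (Nid1). 13 of the 36 lay above 0, against 46.6% of all genes. Without the 4 genes that are no subunits, 1 of 32 fell, 10 lay above 0 and the median was -0.12. 8 of the 36 were dim, with a mean in the lowest 30% of probe sets (below 5.05).

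**Figure D1:**
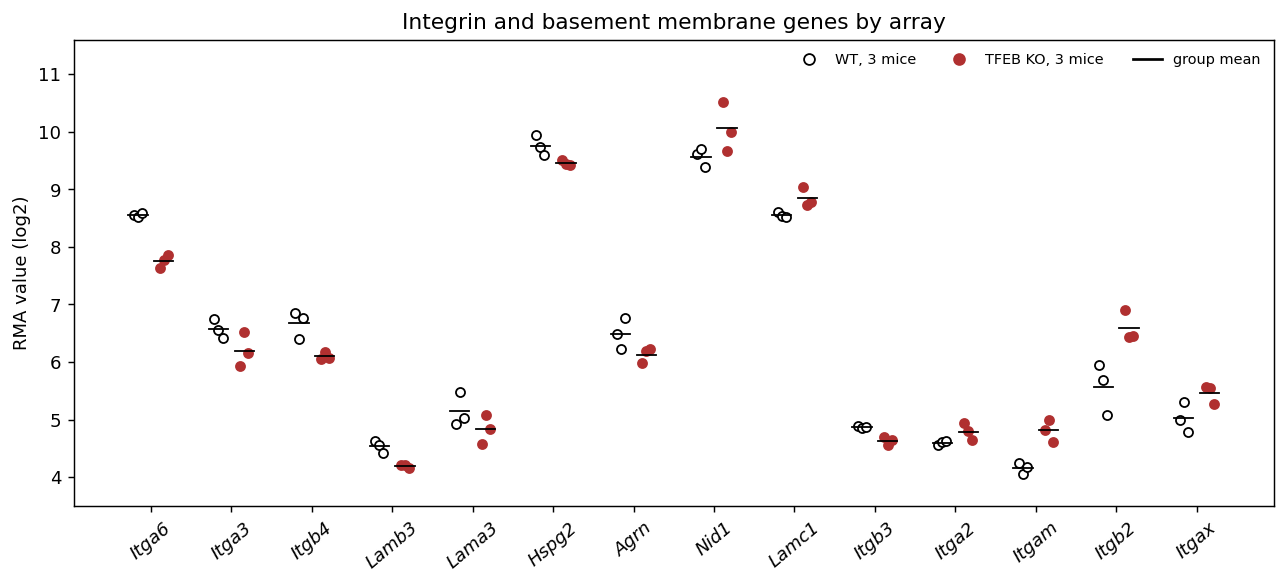
RMA values (log2, vertical axis) of 14 genes (horizontal axis) on each array, with open points for 3 WT mice, filled points for 3 TFEB KO mice and lines for the group means. Itga6 stood between 8.51 and 8.58 in WT and between 7.62 and 7.85 in TFEB KO, while the groups of Itga3, Lama3, Nid1 and Itgax overlapped. Heights are not comparable between genes.

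Itga6, the laminin-binding alpha subunit that pairs with Itgb1 or Itgb4, read 8.55, 8.51 and 8.58 in WT and 7.62, 7.77 and 7.85 in TFEB KO. All KO arrays lay below all WT arrays. Its mean was 8.55 ± 0.04 in WT and 7.75 ± 0.12 in TFEB KO (SD, n = 3 mice each). The difference was -0.80 on the log2 scale (standard error 0.095, limma adjusted p = 0.0146), or 1.74-fold lower. A dimmer probe set of Itga6 also fell, by 0.60 on the log2 scale (limma adjusted p = 0.0424). The call of the brightest was lost without WT 1 (adjusted p = 0.071), without WT 2 (0.056) or without KO 2 (0.055), with log2 fold changes from -0.85 to -0.70 over all settings tried. Itgb4, the beta subunit that pairs with Itga6 alone and anchors epithelial cells, Schwann cells and some vessels, read 6.85, 6.39 and 6.76 in WT and 6.05, 6.17 and 6.07 in TFEB KO. The groups did not overlap, and the difference of -0.57 (standard error 0.13, limma adjusted p = 0.0712) did not pass the test. Itga3, another laminin-binding alpha, read 6.75, 6.55 and 6.41 in WT and 5.92, 6.51 and 6.16 in TFEB KO, with overlap and a difference of -0.38 (limma adjusted p = 0.279). Its dimmer probe sets differed by -0.01 and -0.08. Itga7, the alpha subunit of the muscle fiber, read 8.37, 8.33 and 8.56 in WT and 8.33, 8.29 and 8.28 in TFEB KO, with overlap and a difference of -0.12 (standard error 0.095, limma adjusted p = 0.582). All 3 laminin-binding alpha subunits lay below 0, where 46.6% of all genes lay above it, and 1 fell (0.702% of all genes). The groups of Itga3 and Itga7 overlapped, so their sign says little.

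Itga6 and Itgb4 are made by endothelial and Schwann cells as well, and markers of those cells were lower in the same arrays. Over all genes, 0.702% fell and 46.6% lay above 0. All 15 endothelial markers lay below 0, 7 of them fell, and their mean level was 7.79 to 7.91 in WT and 7.15 to 7.36 in TFEB KO. The defining markers Pecam1 and Cdh5 differed by -0.82 (limma adjusted p = 0.0462) and -0.48 (0.0827). All 8 Schwann and myelin markers lay below 0 and 2 fell, with mean levels of 7.38 to 7.51 in WT and 6.86 to 7.08 in TFEB KO, while the defining Sox10 differed by -0.05. Smooth muscle and pericyte markers had mean levels of 8.90 to 9.06 and 8.61 to 8.67, and 2 of 11 fell. None of the 110 markers measured stood at or below 0, since RMA has no zero level. In these bulk samples fewer cells of a type and less RNA per cell cannot be told apart, and the part of these cells in the change of Itga6 was not tested.

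**Figure D2:**
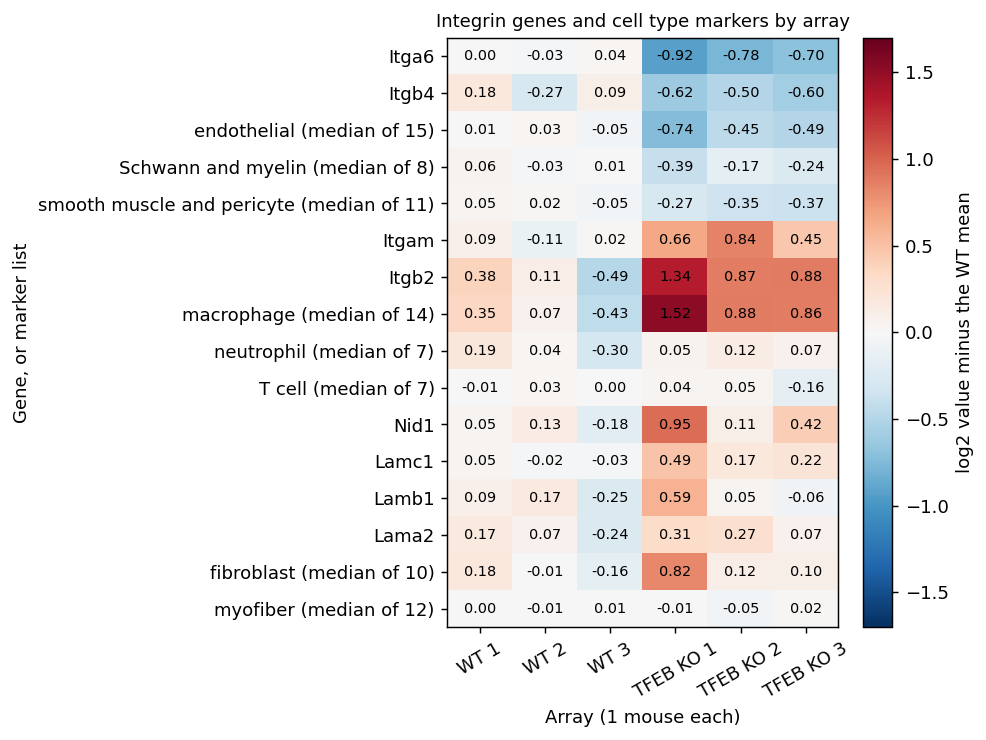
Log2 value minus the WT mean (colour and printed numbers, red higher and blue lower) for 8 genes of the set and the median of 8 marker lists (vertical axis) on the 6 arrays (horizontal axis). Itga6, Itgb4 and the endothelial median lay below 0 on all 3 TFEB KO arrays, Itgb2 and the macrophage median above 0, and the fibroblast median reached 0.82 in TFEB KO 1 against 0.12 and 0.10 in the other two.

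The other alpha subunits did not pass the test. The collagen receptor subunit Itga2, a dim gene, read 4.55, 4.62 and 4.62 in WT and 4.93, 4.79 and 4.64 in TFEB KO, without overlap and with a difference of 0.19 (limma adjusted p = 0.386). The 4 alpha subunits that bind the RGD sequence of matrix proteins differed by -0.21 (Itga8), -0.08 (Itga2b, the platelet fibrinogen receptor), -0.02 (Itga5, the fibronectin receptor) and 0.14 (Itgav). Itga4, Itga9 and Itgae, which bind VCAM1, tenascin and E-cadherin among others, differed by -0.11, -0.10 and 0.02.

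Itgb1, the beta subunit shared by most of these receptors, lay above 0 in its brighter probe sets, which differed in whether the test was passed. The brightest read 10.06, 10.16 and 9.81 in WT and 10.31, 10.35 and 10.03 in TFEB KO, with overlap and a difference of 0.22 (limma adjusted p = 0.437). A dimmer probe set read 9.37, 9.40 and 9.40 in WT and 9.79, 9.86 and 9.94 in TFEB KO, without overlap, and rose by 0.47 (limma adjusted p = 0.0437), though its name marks probes that can match other transcripts. Another read 9.80, 9.80 and 9.81 in WT and 10.23, 10.08 and 10.11 in TFEB KO, without overlap. It differed by 0.34 (limma adjusted p = 0.1). The 3 others, dim and near 3 on the log2 scale, differed by -0.01 to -0.06. Itgb3, which pairs with Itgav and Itga2b and is dim here, read 4.89, 4.85 and 4.87 in WT and 4.69, 4.57 and 4.64 in TFEB KO. Its groups did not overlap, with a difference of -0.24 (limma adjusted p = 0.202). Itgb5, Itgb6, Itgb7 and Itgb2l differed by 0.01, 0.11, -0.05 and -0.09. The probe sets of Itgb5 and Itgb6 had both signs.

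**Figure D3:**
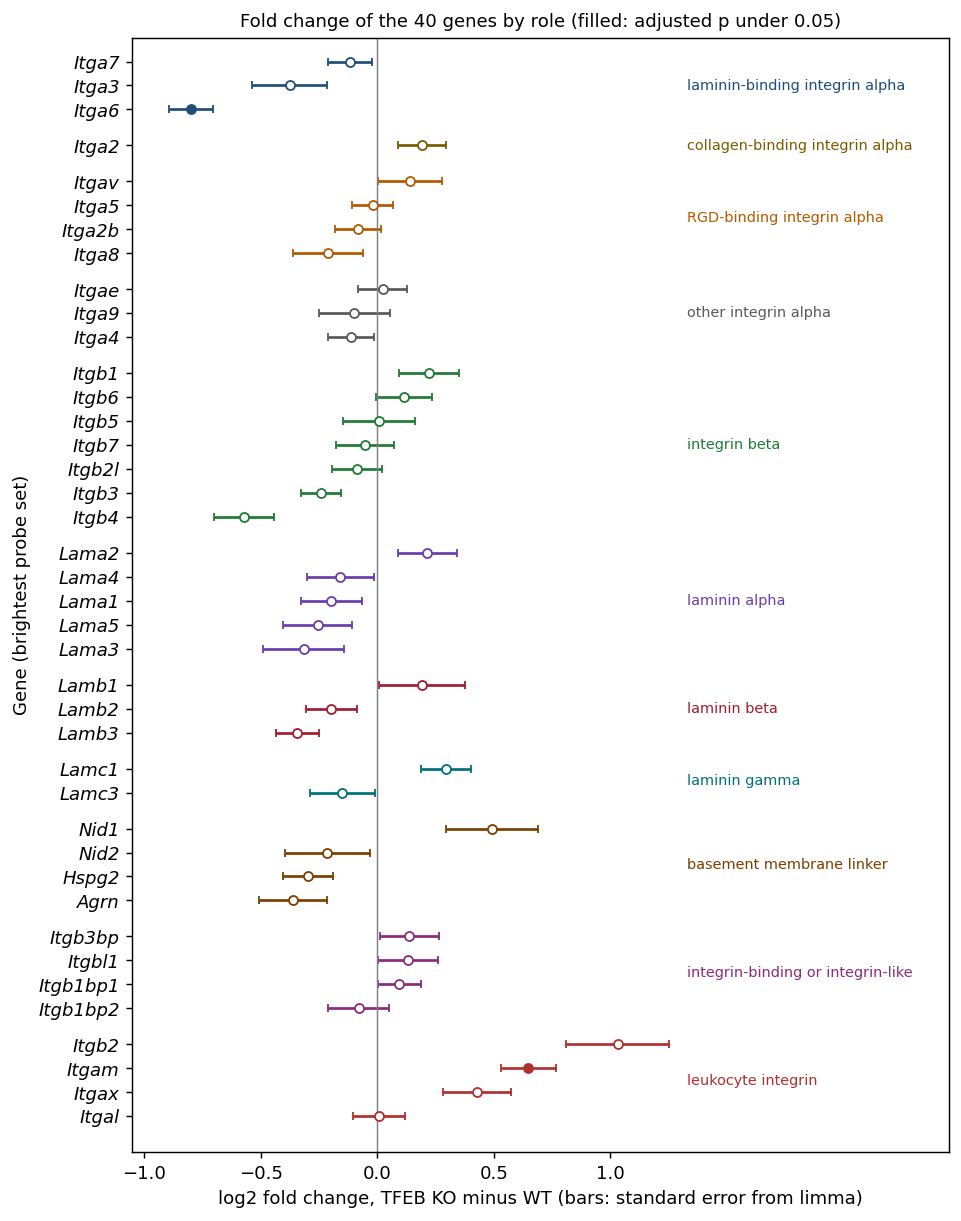
Log2 fold change, TFEB KO minus WT (horizontal axis), of the 40 genes (vertical axis) grouped by role, with bars for the limma standard error and filled points for a limma adjusted p under 0.05. Itga6 and Itgam are the filled points, and the 4 leukocyte integrins lie above 0, Itgal by only 0.01.

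The laminins were 5 alpha, 3 beta and 2 gamma chains, and 0 passed the test by limma. At an unadjusted p under 0.05 their brightest probe sets gave Lamb3, lower (8.66% of all genes), and Lamc1, higher (8.49%). Lamb3, the beta chain of the epithelial laminin with Lama3 and a dim gene, read 4.63, 4.56 and 4.42 in WT and 4.22, 4.21 and 4.15 in TFEB KO. The groups did not overlap, with a difference of -0.34 (standard error 0.093, limma adjusted p = 0.114). Lama3 read 4.92, 5.47 and 5.04 in WT and 4.57, 5.08 and 4.84 in TFEB KO, with overlap and a difference of -0.31 (limma adjusted p = 0.411). The chains of the laminin that surrounds muscle fibers lay above 0 in their brightest probe sets, and 0 of them passed the test. Lamc1, the gamma chain of nearly all laminins, read 8.60, 8.53 and 8.51 in WT and 9.04, 8.72 and 8.77 in TFEB KO. Its groups did not overlap, and the difference was 0.30 (standard error 0.11, limma adjusted p = 0.211), while a dimmer probe set differed by 0.05. Lama2, whose loss causes a muscular dystrophy, lay between 8.49 and 8.90 in WT and between 8.80 and 9.04 in TFEB KO, with overlap and a difference of 0.22 (adjusted p = 0.447). Lamb1 differed by 0.19 (adjusted p = 0.649), with overlap and dimmer probe sets at 0.26 and -0.40. The other alpha chains Lama1, Lama4 and Lama5, the last 2 of vessels and the synapse, differed by -0.20, -0.16 and -0.26. Dimmer probe sets of Lama4 and Lama5 differed by -0.21 and -0.39 (limma adjusted p = 0.594 and 0.28). Lamb2, a chain of the synapse, differed by -0.20, and Lamc3 by -0.15.

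Linker genes went in both directions. Nid1, nidogen, read 9.62, 9.70 and 9.39 in WT and 10.51, 9.67 and 9.99 in TFEB KO, with overlap and a difference of 0.49 (standard error 0.20, limma adjusted p = 0.252). A dimmer probe set differed by 0.02. Nid2 differed by -0.21 (adjusted p = 0.605). Perlecan, Hspg2, read 9.94, 9.74 and 9.59 in WT and 9.51, 9.44 and 9.42 in TFEB KO, without overlap and with a difference of -0.30 (limma adjusted p = 0.211), but its dimmer probe set differed by 0.25 (adjusted p = 0.375). Agrin, which clusters acetylcholine receptors at the synapse, read 6.48, 6.22 and 6.77 in WT and 5.98, 6.18 and 6.22 in TFEB KO. Its lowest WT and highest KO arrays nearly met without overlap, and the difference was -0.36 (standard error 0.15, limma adjusted p = 0.252). TFEB KO 1 was the highest KO array for Nid1, Lamc1, Lamb1 and Lama2. Fibroblast markers were highest on that array too, with a median shift of 0.82 against the WT mean, and 0.12 and 0.10 in KO 2 and KO 3. KO 1 was also the KO array furthest from the WT mean for macrophage, endothelial and Schwann markers, but not for the other marker lists. The macrophage median was 1.52 there, and 0.88 and 0.86 in KO 2 and KO 3. The endothelial median was -0.74 there, and -0.45 and -0.49 in KO 2 and KO 3. By limma 0 of 10 fibroblast markers passed the test. At an unadjusted p under 0.05 there were 4 higher (Mfap5, Dpt, Pdgfra and Dcn) and 2 lower (Col1a1 and Col1a2). Over all genes, 8.49% were higher and 8.66% lower at that p. Without KO 1, Nid1 differed by 0.26, Lamc1 by 0.20, Lama2 by 0.17 and Lamb1 by -0.01. The part of fibroblasts or of other cells in these values was not tested.

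**Figure D4:**
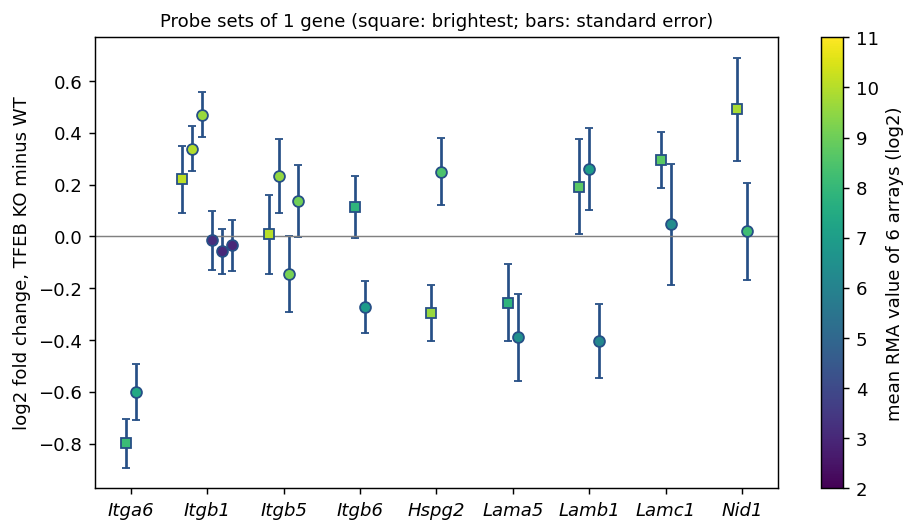
Log2 fold change, TFEB KO minus WT (vertical axis), of each probe set of 9 genes (horizontal axis), with squares for the brightest, circles for the others, bars for the standard error and fill colour for the mean RMA value over 6 arrays. Both probe sets of Itga6 lay below 0, at -0.80 and -0.60, while those of Hspg2 lay on opposite sides, at -0.30 and 0.25.

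The 4 genes that the rule matched by symbol alone differed by 0.14 (Itgb3bp, also a centromere protein), 0.13 (Itgbl1, an integrin beta-like protein), 0.10 (Itgb1bp1, which binds the Itgb1 tail) and -0.08 (Itgb1bp2, melusin, made in muscle), and 0 passed the test by limma, with 0 at an unadjusted p under 0.05.

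All 4 leukocyte integrins lay above 0 (46.6% of all genes), Itgal by only 0.01. Itgam rose (0.871% of all genes) while 0 fell (0.702%). Itgam, the alpha subunit of the complement receptor of macrophages and neutrophils, read 4.25, 4.06 and 4.18 in WT and 4.82, 5.00 and 4.61 in TFEB KO. The groups did not overlap, and the means were 4.16 ± 0.10 and 4.81 ± 0.19 (SD, n = 3 mice each). The difference was 0.65 on the log2 scale (standard error 0.12, limma adjusted p = 0.0437), or 1.57-fold higher. Its values are below the limit for dim probe sets, and the call was lost without any 1 of the arrays, at adjusted p values from 0.050 to 0.15. Itgb2, the shared beta subunit, read 5.94, 5.68 and 5.08 in WT and 6.90, 6.44 and 6.45 in TFEB KO, without overlap. Its difference was 1.03 (standard error 0.22, limma adjusted p = 0.0629), or 2.04-fold. With a second quantile normalization it passed (adjusted p = 0.046). Itgax, the alpha subunit of dendritic cells and some macrophages, read 4.99, 5.30 and 4.79 in WT and 5.56, 5.54 and 5.26 in TFEB KO, with overlap and a difference of 0.43 (limma adjusted p = 0.188). Itgal, the alpha subunit of lymphocytes, differed by 0.01 (limma adjusted p = 0.984), and its sign turned in 4 of 16 settings.

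Macrophage markers were higher on the same arrays, with 14 of 14 above 0 (46.6% of all genes) and 6 risen (0.871% of all genes). Their mean levels were 7.05 to 7.80 in WT and 8.40 to 8.98 in TFEB KO. Among the defining ones, Adgre1 differed by 0.85 (limma adjusted p = 0.0485), Cd68 by 1.01 (0.0726) and Csf1r by 0.63 (0.291). Neutrophil markers had mean levels of 4.73 to 5.11 in WT and 5.14 to 5.41 in TFEB KO with a median difference of 0.10, and T cell markers had a median difference of -0.06. By limma 0 of 7 passed the test in each list. At an unadjusted p under 0.05 there were 2 neutrophil markers, both higher (8.49% of all genes), and 0 T cell markers. The 2 were S100a8, which differed by 1.29 (limma adjusted p = 0.0793), and S100a9, by 1.21 (adjusted p = 0.107), subunits of calprotectin whose groups did not overlap. The rest of the neutrophil list, Mmp9, Csf3r, Ngp, Mmp8 and Camp, differed by 0.24, 0.10, 0.00, -0.05 and -0.18, all with overlap. The part of macrophages and neutrophils in the levels of Itgam and Itgb2 was not tested.

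Partners of these receptors and matrix proteins were read from lists of other genes. Counts in these lists are read against all genes, of which 0.702% fell, 0.871% rose and 46.6% lay above 0. At an unadjusted p under 0.05 limma gave 8.66% of all genes lower and 8.49% higher. Of 14 measured genes for collagen IV and other basement membrane proteins, 0 passed the test by limma. At an unadjusted p under 0.05, limma and the methods' t-test each gave 2, both lower (8.66% and 8.37% of all genes). They were Fbln1, fibulin, which read 7.62, 7.27 and 7.45 in WT and 7.18, 7.16 and 6.95 in TFEB KO (difference -0.35, limma adjusted p = 0.178), and Col4a2, a collagen IV chain, which read 9.59, 9.69 and 9.52 and then 9.46, 9.27 and 9.27 (difference -0.27, adjusted p = 0.213). Neither gene's groups overlapped, though a dimmer probe set of Fbln1 differed by 0.00. The list had a median of -0.16, and 10 of 14 genes lay below 0.

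Of 11 measured ligands of the interstitial matrix, 2 fell (0.702% of all genes) and 0 rose (0.871%), and the median was close to 0. Vtn, vitronectin, a ligand of Itgav receptors, read 8.27, 8.36 and 8.14 in WT and 7.43, 7.33 and 7.57 in TFEB KO, a difference of -0.81 (standard error 0.10, limma adjusted p = 0.0174). Its call was lost without WT 1 (0.077), WT 2 (0.066) or KO 2 (0.061). Vwf, von Willebrand factor, which carries clotting factors and binds platelets, read 7.53, 7.63 and 7.69 in WT and 6.89, 6.73 and 6.64 in TFEB KO, a difference of -0.86 (standard error 0.10, limma adjusted p = 0.0146). It was lost without WT 1 (0.058), WT 2 (0.056) or KO 2 (0.055). The groups of neither gene overlapped. Vwf is also one of the endothelial markers that fell.

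Receptors and adaptors other than integrins gave 1 call in each list, all lower. Of 10 genes for dystroglycan, its glycosylation and related receptors, 8 lay below 0 and Bcam fell. Bcam, a receptor for the product of Lama5, read 7.37, 7.18 and 7.21 in WT and 6.50, 6.56 and 6.01 in TFEB KO, a difference of -0.90 (standard error 0.15, limma adjusted p = 0.0354), or 1.86-fold lower. It was lost without WT 1 (0.144), WT 2 (0.101), WT 3 (0.1) or KO 2 (0.065). Of 25 adhesion adaptors and kinases, 15 lay below 0 and Lims2 fell. At an unadjusted p under 0.05 limma gave 7 lower and 2 higher. The higher were Lims1, by 0.30 without overlap in the brightest of its 3 probe sets (limma adjusted p = 0.133), and Fermt3, given below. Besides Lims2, the lower were Tln1 at -0.55 (limma adjusted p = 0.0932) and Actn4 at -0.44 (limma adjusted p = 0.0722). Flna, Csrp1, Parvb and Sharpin were lower too, at -0.39, -0.37, -0.34 and -0.24. Lims2, an adaptor that binds integrin-linked kinase, read 8.31, 8.25 and 8.33 in WT and 7.74, 7.64 and 7.81 in TFEB KO, a difference of -0.57 (standard error 0.090, limma adjusted p = 0.0294). It was lost without any array but KO 1, at adjusted p values from 0.063 to 0.123. Fermt3, kindlin of blood cells, was named after its values were seen: its brightest probe set read 6.07, 5.73 and 5.35 in WT and 7.23, 6.53 and 6.59 in TFEB KO (difference 1.06, limma adjusted p = 0.061), and its others differed by 0.22 and 0.02.

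Of 8 genes of the agrin receptor pathway, 4 lay above and 4 below 0. At an unadjusted p under 0.05 limma gave 2 higher and 2 lower. The higher were Chrnb1, a subunit of the acetylcholine receptor, by 0.39 (limma adjusted p = 0.0656), and Musk, by 0.33 (limma adjusted p = 0.173). The groups of neither overlapped. The lower were Chrne, and Rapsn at -0.22 (limma adjusted p = 0.283), also without overlap. Chrne, the epsilon subunit of the adult acetylcholine receptor that agrin clusters, read 7.24, 7.41 and 7.44 in WT and 6.62, 6.84 and 6.63 in TFEB KO, and fell by 0.66 (standard error 0.10, limma adjusted p = 0.0294). Its groups did not overlap, and the call was lost without any array but KO 1, at adjusted p values from 0.060 to 0.105. Of 16 genes for integrin activation and recycling, 9 lay below 0 and Rasip1 fell. At an unadjusted p under 0.05 limma gave 1 lower and 2 higher. The higher were Cd151, by 0.47 (limma adjusted p = 0.0875), and Rap1a, by 0.34 (limma adjusted p = 0.134), both without overlap. Cd151 has 6 probe sets and Rap1a 2, and only the brightest of each is given here. That of Cd151 has a name that marks probes which can match other transcripts. Rasip1, a partner of Rap GTPases in vessels, read 6.34, 6.20 and 6.29 in WT and 5.40, 5.33 and 5.23 in TFEB KO, a difference of -0.96 (standard error 0.093, limma adjusted p = 0.011), or 1.94-fold lower. Its call was lost without WT 1 (0.051). Rasip1 is an endothelial marker too, and the part of endothelial cells in the partners that fell was not tested.

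**Figure D5:**
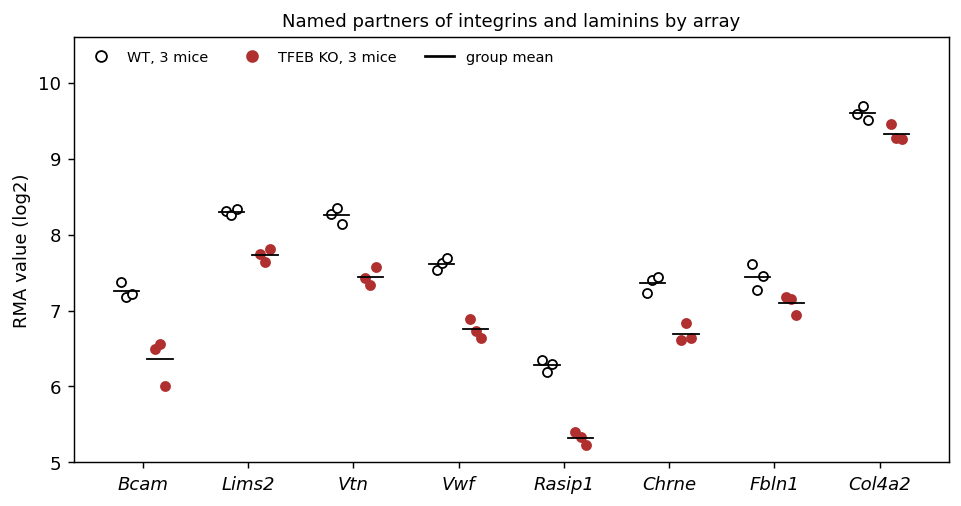
RMA values (log2, vertical axis) of 8 partner genes (horizontal axis) on each array, with open points for 3 WT mice, filled points for 3 TFEB KO mice and lines for the group means. All TFEB KO points lie below all WT points in each of the 8 genes, which were named for their small p values.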

How the data were processed

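Per the labels, total RNA of 6 muscles was labelled as biotin cRNA and hybridised to Affymetrix arrays. The deposited values are log2 expression per probe set, which the authors computed with RMA in the R package affy (versions not given in the sources used here). RMA normalises all arrays together and compresses low values. Of 22690 probe sets, 64 controls were left out and 22626 tested in R 4.3.3 with limma 3.58.1 (lmFit and eBayes), two-sided, at a threshold of 0.05 after Benjamini-Hochberg adjustment over all of them. Probe sets that name 1 gene (20380) were used by gene, and those that name several (691) or none (1555) were not. Arrays have no depth, and their number limits the precision. With 3 arrays against 3 an exact permutation test, two-sided, cannot go below p = 0.1, and a p that misses the threshold does not show that values were alike.

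The genes, lists and tests were chosen with earlier results of these data known. Values per array are given for genes of the set past the test and for the 12 others of smallest p. From each list of partner genes up to 4 called genes are named, and where 0 were called, those 2 with the smallest p. The lists of cell type markers had no such rule, and not all of their called genes are named. Itga7, Itgb1, Fermt3, Lims1, Chrnb1, Musk, Cd151, Rap1a, S100a8, S100a9, Myh7 and Myh2 fall outside these rules and were chosen with their values in view. So do Tln1, Actn4, Flna, Csrp1, Parvb, Sharpin and Rapsn, which were named for an unadjusted p under 0.05. There were 6 lists of partner genes and 11 of cell type markers. In 5 simulated runs of the comparison (22626 probe sets, 200 of them changed), the share that limma recovered was 14.8% for a log2 change of 0.5, 87.8% for 1 and 98.8% for 2, with 6.35% false among the calls. The simulated noise was independent between probe sets and drawn from the spread that limma fitted. Shifts that many genes share on an array were not simulated, so these shares may not hold for the real arrays. Alternatives were the normalization, a filter on dim probe sets, moderation, array weights, a replicate block, the methods' t-test, a fold minimum, the choice of probe set and each array left out. Python 3.11.15 with pandas 2.3.3 and NumPy 2.4.6 handled the tables, and matplotlib 3.10.9 drew the figures.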

Additional observations from a re-analysis of the deposited data

How the results depend on the processing

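Itga6 kept its call in 13 of 17 settings and lost it with the methods' t-test, adjusted (0.132), and without WT 1, WT 2 or KO 2. Itgam kept its call in 7 of 16 settings, and lost it with a shift to the same 75th percentile (0.054), with the replicate block (0.065), with the adjusted t-test (0.196) and without each array, and its probe set is itself dim. For both genes the kept calls include settings that could hardly differ. The fold minimum and the suffix-free probe set reuse the main p values, and the unadjusted t-test has no adjustment. Over the 36 genes, the count that fell was 5 with the unadjusted t-test, 0 with the adjusted one and 0 to 1 with 1 array left out, and the count that rose was 1 with the unadjusted t-test. Leukocyte integrins that rose numbered 2 with a second quantile normalization and with the unadjusted t-test, 0 with the 75th percentile shift, without dim probe sets and with the adjusted t-test, and 0 with each array left out. Over all genes, 132 fell with array weights, 56 with the replicate block, 1037 and 0 with the unadjusted and adjusted t-test, 139 with the mean of all probe sets, and 2 (without WT 1) to 87 (without KO 1) with 1 array left out, the other 4 giving 9 to 25. Those that rose numbered 809 and 0 by the t-test and 13 (without WT 1) to 139 (without KO 1) with 1 array left out, the other 4 giving 15 to 32.

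In the partner lists the unadjusted t-test gave 2 lower for basement membrane, 5 lower and 2 higher for adaptors, 4 lower for dystroglycan, 2 lower and 2 higher for the agrin pathway, and 2 lower and 2 higher for activation and recycling, and the adjusted one gave 0 in every list. Over all genes the unadjusted t-test gave 8.37% lower and 6.53% higher. Adaptors gave 2 lower with array weights, 0 lower at 1.5-fold, and 1 higher with a second quantile normalization and with the replicate block. The agrin pathway gave 1 higher with array weights and when probe sets were averaged, and activation and recycling gave 2 lower with that average and with probe sets whose name has no suffix for shared probes. With 1 array left out the lists gave 0 to 1 lower, ligands 0 to 3 and adaptors 0 to 2.

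Over the genes of the set and the named partners, signs turned only for genes that did not pass the test. With a second quantile normalization the log2 fold change of Itga5 was 0.0071 and of Itgb5 -0.029, with the 75th percentile shift that of Itgal was -0.0011 and of Itgb5 -0.0010, with averaged probe sets that of Itgb6 was -0.079 and of Itga5 0.012, and with suffix-free probe sets that of Itga5 was 0.044. With 1 array left out, Itgb6 ranged from -0.0085 to 0.19, Itgb7 from -0.16 to 0.041, Itga9 from -0.24 to 0.036, Itgb1bp2 from -0.19 to 0.019, Itga5 from -0.059 to 0.0062, Itgal from -0.085 to 0.093, Itgb5 from -0.12 to 0.18, Itgae from -0.045 to 0.11 and Lamb1 from -0.0069 to 0.32. The causes were not tested.

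Same-number correlations of deviations were 0.09, 0.05 and 0.27, and those between other numbers ran from -0.25 to 0.17. With 3 arrays a group these values cannot settle whether replicate numbers pair the arrays. With the replicate block the 36 genes gave 1 lower and 0 higher, and Itgb2 passed (0.031). In the simulated runs changes of 0.5 were rarely recovered with 3 arrays a group.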

Other observations

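Markers of other cells were read beside the set. Over all genes, 0.702% fell, 0.871% rose and 46.6% lay above 0. At an unadjusted p under 0.05 limma gave 8.66% of all genes lower and 8.49% higher. All 10 tendon and cartilage markers lay below 0, with a median log2 fold change of -0.71, and 4 of them fell, at mean levels of 7.78 to 7.96 in WT and 7.17 to 7.22 in TFEB KO. Satellite cell and myoblast markers had a median of 0.04, and 1 of 10 rose, Myog, a factor of differentiating myoblasts, by 0.87. Platelet and megakaryocyte markers, among them Itga2b of the set, had a median of -0.03, and 0 of 6 passed the test by limma, with 1 at an unadjusted p under 0.05. The 12 myofiber markers had a median of -0.01, and 0 passed the test by limma, with 2 lower at an unadjusted p under 0.05. These were the myosins of slow and oxidative fibers, Myh7 at -1.40 (limma adjusted p = 0.0688) and Myh2 at -0.57 (adjusted p = 0.0977), and the groups of neither gene overlapped.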
